A study of Homo sapiens with 40 samples.

Results

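Transcript levels of 9 genes of antigen receptor signalling toward NF-kB were followed in 2 lymphoma lines: the kinases LYN, LCK, SYK and BTK, the scaffold BLNK, the exchange factor RASGRP1, the protease MALT1, the protein kinase C substrate PLEK and the phosphatase PTPN22. The genes were taken by name, as 9 of the pathway's genes with a probe on the array, with earlier results of these data known. A further 66 listed pathway genes on the array are taken up below. They are 9 of 4604 genes measured, and 45 of the 10169 probes that carry a single gene symbol. BLNK had 5 probes, MALT1 2, PTPN22 7, RASGRP1 2, LCK 5, BTK 7, SYK 9, LYN 6 and PLEK 2.

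RNA was compared on 40 two-colour arrays, each of which set treated cells (Cy5) against control cells of the same line (Cy3). OCI-Ly3 and OCI-Ly10 are human cell lines from diffuse large B cell lymphoma of the activated B cell-like type, in which NF-kB is constantly active. OCI-Ly10 cells received IL-6 at 50 ng/ml (0.5, 1, 3, 6 and 24 h, 8 arrays) or JAK inhibitor I at 5 uM (3 and 6 h, 4 arrays), and OCI-Ly3 cells received IL-10 at 50 ng/ml (1, 3, 6, 24, 48 and 96 h, 10 arrays), each against untreated cells. Derivatives of both lines that carry a doxycycline-inducible IkB super-repressor, a form of the NF-kB inhibitor IkB alpha that resists degradation, received doxycycline at 20 ng/ml and were set against the same derivative without it (OCI-Ly3 at 1, 1.5, 2, 3, 4 and 6 h, 9 arrays, and OCI-Ly10 at 1.5, 3, 6 and 24 h, 4 arrays). OCI-Ly10 cells electroporated with a pool of siRNAs against STAT3 at 4 uM were set against cells electroporated without siRNA (8, 24 and 48 h, 5 arrays). No array here measured doxycycline in cells without the super-repressor or a non-targeting siRNA. The labels do not say whether the derivatives were clones or pools, and they leave unstated whether replicates came from separate cultures. The p-values therefore measure only the spread between these samples, which may be technical.

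When a B cell receptor binds antigen, LYN phosphorylates the CD79A and CD79B chains, SYK docks on them, and SYK then phosphorylates the scaffold BLNK, which brings BTK to phospholipase C. The lipid made there recruits RASGRP1, which activates RAS, and protein kinase C, which opens the BCL10 and MALT1 route to NF-kB. PTPN22 removes activating phosphates from SRC family kinases such as LYN and LCK and so dampens the signal. Activated B cell-like lymphomas are known for constant traffic along this pathway. The proteins act mostly by phosphorylation, which RNA does not show.

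A value below is the log2 ratio of treated over control, after each array was centred on its median, with the probes of a gene averaged. The deposited values do not state their log base and are read as base 2. A ratio gives no absolute level, so neither the identity of the lines by marker level nor the order of the genes by level could be given, and fewer cells of a kind and less RNA per cell cannot be told apart. A window mean is the average of the time points named, tested against 0 with limma over all genes measured there, and a gene is called where its adjusted p is under 0.05. The super-repressor and the siRNA showed in their own targets: NFKBIA, an NF-kB target, fell by 1.61 in OCI-Ly3 and fell by 1.03 in OCI-Ly10 under the super-repressor, and STAT3 fell by 1.59 under its siRNA (adjusted p = 1.21e-08, 0.00269 and 6.40e-05, limma). STAT3 was also at 1.37 under IL-10 and -0.69 under JAK inhibitor I (adjusted p = 1.45e-08 and 0.0264, limma). Under IL-6 STAT3 was not called over 1 to 24 h (0.08, adjusted p = 0.785, limma), nor was NFKBIA (0.0011, adjusted p = 0.998). The STAT3 mean there spans -0.25 after 1 h, 0.42 after 3 h, 0.16 after 6 h and -0.02 after 24 h. The 2 arrays at 2 h of the super-repressor in OCI-Ly3 did not correlate with each other (r = -0.02 across probes, against 0.14 to 0.68 for the other replicate pairs), so results there are also given without them. Arrays of different experiments correlated down to -0.42, with 8 of 780 pairs below -0.3 and none of these within an experiment. The dyes are stated in the labels, so the direction was kept. Array identifiers fall into 12 runs of close numbers, which the labels do not describe, and the text says where a call of the 9 genes was not given by a fit with the run as a random block. Other windows and left-out arrays were not combined with that block.

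In no experiment did the 9 genes all move one way. Under the IkB super-repressor in OCI-Ly3 (2 to 6 h, 7 arrays), BLNK and PTPN22 rose while RASGRP1 and PLEK fell, which is 4 of 9 genes called where 14.0% of all genes tested were. In OCI-Ly10 (3 to 24 h, 3 arrays) PTPN22 rose and PLEK fell, 2 of 9 against 0.532% of all genes. The median over the 9 genes was 0.05 in OCI-Ly3 and -0.08 in OCI-Ly10, beside -0.03 and -0.0078 over all genes tested. With the array run as a random block, 0 of the 9 genes were called in OCI-Ly3, where the count over all genes went from 616 to 120, and 1, PLEK, was called in OCI-Ly10. IL-6 in OCI-Ly10 (1 to 24 h, 7 arrays) gave a rise of LCK, 1 of 8 genes tested against 4.54% of all genes, with a median of -0.06 beside -0.0089, and none with the run as a random block. IL-10 in OCI-Ly3 (1 to 96 h, 10 arrays) gave a rise of MALT1 and PTPN22, 2 of 9, which is below the 35.3% of all genes called there, with a median of 0.07 beside -0.02. The STAT3 siRNA (24 and 48 h, 4 arrays) gave a fall of RASGRP1, 1 of 9 against 3.31% of all genes, with a median of -0.05 beside -0.01, and again none with the run as a random block. JAK inhibitor I (3 and 6 h, 4 arrays) gave no call among the 9 genes where 3.26% of all genes were called, with a median of -0.07 beside 0.0002, and none of the 9 had an unadjusted p under 0.05 except BLNK (0.00468). BTK, SYK and LYN were called in none of these 6 windows. Under IL-10, however, 2 of 7 SYK probes, 1 of 3 LYN probes and 2 of 4 LCK probes tested were called on their own. Over all genes 3187 of 8996 probes were called there.

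**Figure D1:**
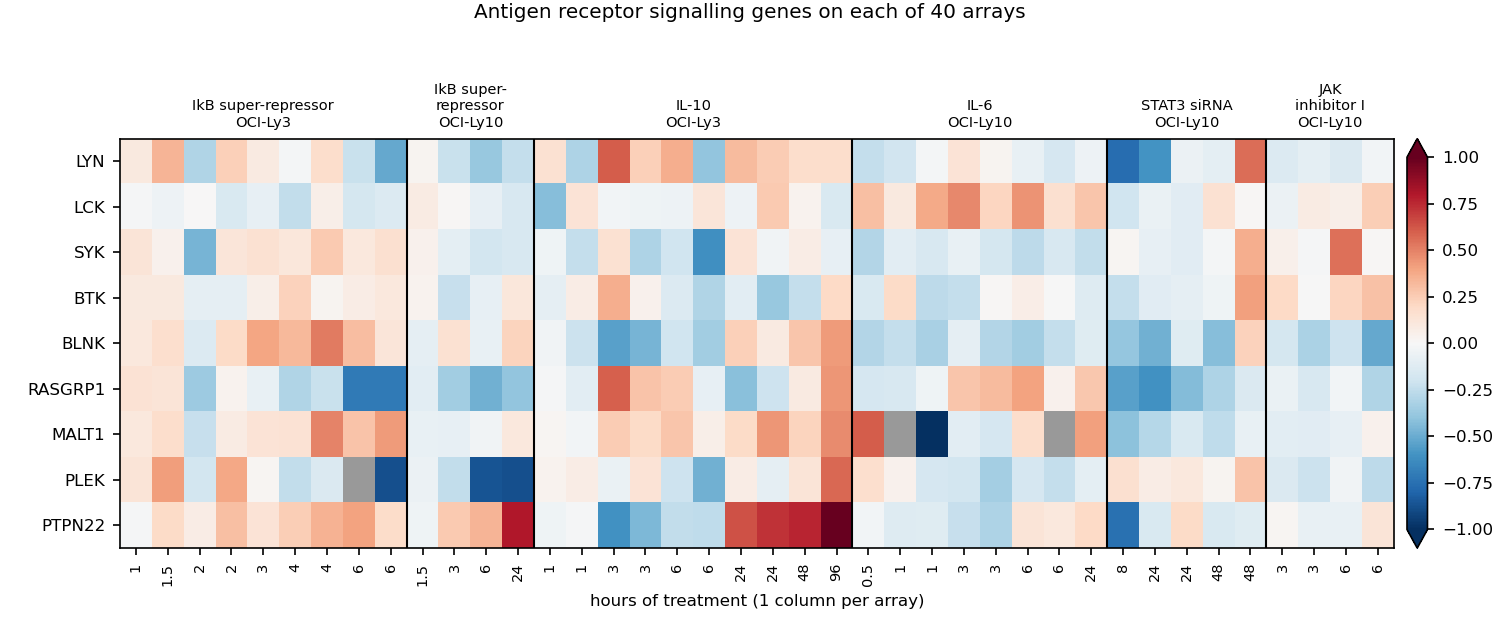
Log2 ratio of treated over control for the 9 genes (rows) on each of the 40 arrays (columns, with hours of treatment), by experiment. Red is above 0, blue is below 0, grey has no value, and the colour scale ends at -1 and 1; PTPN22 late under IL-10 and PLEK late under the super-repressor stand out.

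**Figure D2:**
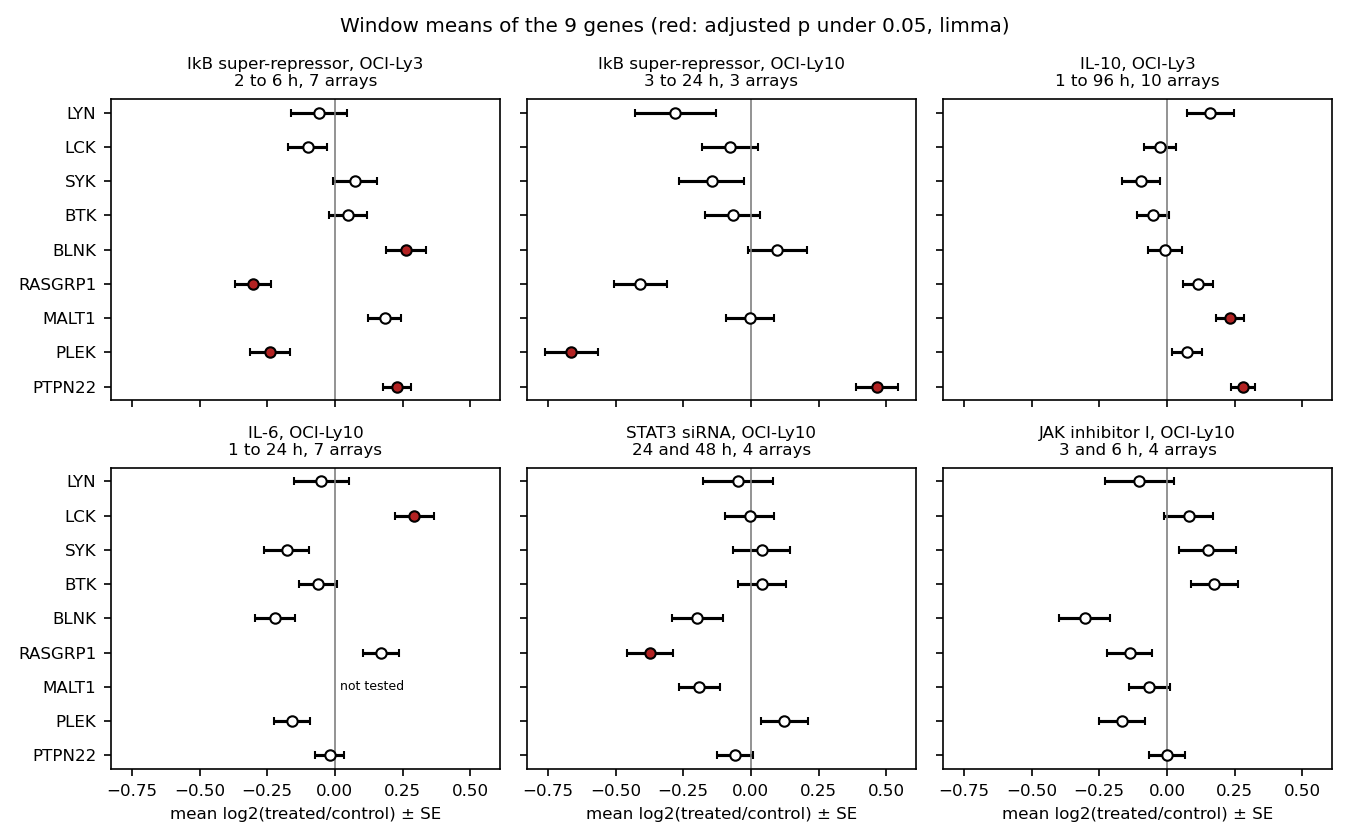
Window mean of each gene with its standard error (horizontal axis, log2 ratio) in the 6 experiments, filled red where limma's adjusted p was under 0.05. PLEK and PTPN22 lie on opposite sides of 0 under the super-repressor in both lines, and MALT1 under IL-6 had values on too few arrays to be tested.

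Among the receptor-proximal kinases, LYN, the SRC family kinase that starts the signal, varied most between replicates. Its replicate SD was 0.27, beside a median of 0.20 over all genes. Under the STAT3 siRNA LYN was at -0.76 on the single 8 h array, -0.59 and -0.06 after 24 h and -0.09 and 0.56 after 48 h. The 48 h replicates lay on either side of 0, and the mean over 24 and 48 h was -0.05 ± 0.13 (SE, n = 4 arrays, adjusted p = 0.871, limma). Under the super-repressor LYN was below 0 on all 3 OCI-Ly10 arrays of the window, at -0.22, -0.38 and -0.24, with a mean of -0.28 ± 0.15 (adjusted p = 0.857). Under IL-10 it was above 0 on 8 of 10 arrays, with a mean of 0.16 ± 0.086 (SE, n = 10, adjusted p = 0.155, limma). With the replicate number as a block, the same mean had an error of 0.060 and an adjusted p of 0.0450, and without replicate 2 at 6 h it was 0.22 ± 0.081 (adjusted p = 0.0400), while with the run as a random block the adjusted p was 0.263. Of the 3 LYN probes tested under IL-10, 2 lay below 0 and 1 above (-0.12 to 0.25).

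LCK, a SRC family kinase best known from T cells and also found in some B cell tumours, rose under IL-6. It was 0.30 after 0.5 h, 0.10 and 0.38 after 1 h, 0.48 and 0.22 after 3 h, 0.45 and 0.16 after 6 h and 0.28 after 24 h. All of these arrays were above 0, with no steady course over time. The 1 to 24 h mean was 0.29 ± 0.071 (SE, n = 7, adjusted p = 0.0213, limma), and the means within the 2 runs of consecutive array identifiers were 0.25 and 0.33. The call did not hold with the run as a random block (adjusted p = 0.152), in a fit of the IL-6 arrays alone (0.0690), or without replicate 2 at 1 h (0.0908), replicate 1 at 3 h (0.0734) or replicate 1 at 6 h (0.0732). All 3 LCK probes that could be tested were above 0 (0.22 to 0.35), though none was called on its own. Of 16 listed T and NK cell markers, 14 were on the array and 9 were tested under IL-6. None was called, their median was 0.11 and their range -0.04 to 0.25, and their part in the LCK value was not tested. In the other experiments LCK stayed between -0.43 and 0.26 on single arrays and was not called. Its 4 probes tested under IL-10 disagreed, from -0.36 to 0.34.

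SYK, the kinase that docks on the phosphorylated receptor, was below 0 on all 7 IL-6 arrays of the window (-0.26 to -0.07), as were all 6 probes tested there, but its mean of -0.18 ± 0.083 was not called (adjusted p = 0.226, limma). Its lowest values on single arrays were -0.61 after 6 h of IL-10 and -0.47 after 2 h of the super-repressor in OCI-Ly3, where the other replicate lay at -0.20 and at 0.12. Under IL-10 the 7 probes tested ran from -0.43 to 0.12. BTK, the kinase that activates phospholipase C, held the narrowest range, from -0.38 to 0.41 over 40 arrays. Its largest window mean was 0.17 ± 0.088 under JAK inhibitor I, above 0 on 3 of 4 arrays (adjusted p = 0.340, limma). No interval for BTK reached beyond -0.28 or 0.36 in any of the 6 windows.

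BLNK, the scaffold between SYK and BTK, rose under the super-repressor in OCI-Ly3 and followed a curve under IL-10. With the super-repressor in OCI-Ly3 it was 0.11 after 1 h, 0.16 after 1.5 h, -0.14 and 0.19 after 2 h, 0.39 after 3 h, 0.32 and 0.52 after 4 h and 0.31 and 0.12 after 6 h. Only a 2 h array was below 0. The 2 to 6 h mean was 0.26 ± 0.075 (SE, n = 7, adjusted p = 0.0260, limma), or 0.34 ± 0.087 without the 2 h arrays (adjusted p = 0.0201), and 0.17 and 0.30 within the 2 array runs. The call was lost with the run as a random block (adjusted p = 0.140), with the OCI-Ly3 super-repressor arrays fitted alone (0.0537), and without replicate 1 at 3 h (0.0647), replicate 2 at 4 h (0.0915), replicate 1 at 6 h (0.0919) or replicate 2 at 2 h (0.107). In OCI-Ly10 BLNK was at -0.09, 0.15, -0.08 and 0.22 at 1.5, 3, 6 and 24 h, a mean over 3 to 24 h of 0.10 ± 0.11 (adjusted p = 0.998). At the times shared by the lines the OCI-Ly3 value was higher by 0.27 ± 0.15, with a 95% interval from -0.04 to 0.57, which was not called.

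Under IL-6 BLNK was below 0 on all 7 arrays of the window, between -0.35 and -0.09, and -0.29 after 0.5 h. The mean was -0.22 ± 0.075 (SE, n = 7, adjusted p = 0.0939, limma). With the replicate number as a block the same mean was called (± 0.056, adjusted p = 0.0253, limma). For a mean tested against 0 that block takes spread shared within a replicate out of the error, so it cannot bear out the call. With the run as a random block the mean was not called (± 0.093, adjusted p = 0.317). Under JAK inhibitor I BLNK was -0.18 and -0.31 after 3 h and -0.21 and -0.51 after 6 h. All 4 arrays were below 0, and the mean of -0.30 ± 0.095 was not called (adjusted p = 0.0889, limma), though it was with the replicate number as a block (0.0232) and with arrays scaled to equal spread (0.0312), and not with the run as a random block (0.179). Under the STAT3 siRNA 3 of 4 arrays were below 0, with a mean of -0.20 ± 0.095 (adjusted p = 0.240), and the 8 h array was at -0.39.

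RASGRP1, the exchange factor that activates RAS, fell under the super-repressor in OCI-Ly3 and under the STAT3 siRNA in OCI-Ly10. In OCI-Ly3 it was 0.15 after 1 h, 0.13 after 1.5 h, -0.37 and 0.04 after 2 h, -0.07 after 3 h, -0.30 and -0.23 after 4 h and -0.71 and -0.71 after 6 h. The 6 h arrays were the lowest and those up to 1.5 h the highest. The 2 to 6 h mean was -0.30 ± 0.067 (SE, n = 7, adjusted p = 0.00691, limma), or -0.35 ± 0.074 without the 2 h arrays (adjusted p = 0.00802), with -0.46 and -0.24 within the 2 array runs. With the run as a random block it was -0.31 ± 0.087 and was not called (adjusted p = 0.0588). In OCI-Ly10 RASGRP1 was at -0.10, -0.34, -0.48 and -0.40 at 1.5, 3, 6 and 24 h, below 0 on every array, with a mean over 3 to 24 h of -0.41 ± 0.098 that missed the threshold (adjusted p = 0.0720). With arrays scaled to equal spread it was -0.60 ± 0.095 and was called (adjusted p = 0.000685).

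Under the STAT3 siRNA RASGRP1 was -0.54 after 8 h, -0.61 and -0.44 after 24 h and -0.31 and -0.15 after 48 h. All 5 arrays were below 0. The mean over 24 and 48 h was -0.37 ± 0.085 (SE, n = 4, adjusted p = 0.0211, limma), with -0.29 and -0.46 within the 2 array runs. The call was lost with the run as a random block (adjusted p = 0.0698), with the siRNA arrays fitted alone (0.305), and without replicate 1 at 24 h (0.189), replicate 1 at 48 h (0.0983) or replicate 2 at 48 h (0.0534). JAK inhibitor I, which acts upstream of STAT3, gave -0.06, -0.16, -0.03 and -0.30, a mean of -0.14 ± 0.085 (adjusted p = 0.463). Under IL-10 RASGRP1 had no steady direction: it was 0.60 and 0.28 after 3 h, -0.42 and -0.20 after 24 h and 0.44 after 96 h, and its 2 probes lay on opposite sides of 0 (-0.15 and 0.38). IL-6 gave -0.17 after 0.5 h and -0.16 and -0.04 after 1 h. From 3 h on all IL-6 arrays were above 0, with time means of 0.30, 0.22 and 0.27 after 3, 6 and 24 h. The 1 to 24 h mean was 0.17 ± 0.067 and was not called (adjusted p = 0.149, limma), with both probes above 0 (0.02 and 0.28).

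MALT1, a protease that acts in a complex with BCL10, rose under IL-10. It was 0.02 and -0.03 after 1 h, 0.26 and 0.19 after 3 h, 0.28 and 0.06 after 6 h, 0.19 and 0.45 after 24 h, 0.23 after 48 h and 0.47 after 96 h. Values were near 0 at 1 h and above 0 on every later array. The 1 to 96 h mean was 0.23 ± 0.051 (SE, n = 10, adjusted p = 0.00196, limma), higher on 9 of 10 arrays, and both probes were called. Under the super-repressor in OCI-Ly3 the mean was 0.18 ± 0.060, above 0 on 6 of 7 arrays (adjusted p = 0.0518), with 0.07 and 0.28 within the 2 array runs. With the run as a random block the adjusted p was 0.234. Of its 2 probes 1 could be tested there, and it was not called (0.13). MALT1 was called without the 2 h arrays (0.27 ± 0.068, adjusted p = 0.0219) and over 4 and 6 h alone (0.34 ± 0.076, adjusted p = 0.0125). Leaving out replicate 1 at 2, 3 or 4 h also gave a call (adjusted p = 0.0215, 0.0428 and 0.0314). Over 4 and 6 h BLNK, PTPN22, RASGRP1 and PLEK were called too, 5 of 9 genes where 8.58% of all genes were. That window was added after the planned ones, and PLEK had a value on only 1 array at 6 h. In OCI-Ly10 the super-repressor gave values from -0.09 to 0.11. Under the STAT3 siRNA MALT1 was below 0 on all 4 arrays of the window, with a mean of -0.19 ± 0.076 (adjusted p = 0.169, limma), and -0.41 after 8 h. Its 2 probes differed in that window, at -0.39, which was called on its own, and at 0.0089.

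PLEK, or pleckstrin, a main substrate of protein kinase C in platelets and white blood cells, fell late under the super-repressor in both lines. In OCI-Ly3 it was 0.13 after 1 h, 0.42 after 1.5 h, -0.18 and 0.39 after 2 h, 0.02 after 3 h, -0.25 and -0.14 after 4 h and -0.88 on the 1 array measured at 6 h. In OCI-Ly10 it was -0.06 after 1.5 h, -0.25 after 3 h, -0.86 after 6 h and -0.88 after 24 h. Values up to 3 h ranged from -0.25 to 0.42, and the 3 arrays at 6 h or later lay close together and far below. The OCI-Ly10 mean over 3 to 24 h was -0.66 ± 0.099 (SE, n = 3 arrays of 1 each per time, adjusted p = 0.00269, limma), and both probes were called. Its error comes from replicates of the other experiments. Without the 24 h array it was -0.55 ± 0.12 (adjusted p = 0.220) and without the 6 h array -0.56 ± 0.12 (adjusted p = 0.111). The OCI-Ly3 mean over 2 to 6 h was -0.24 ± 0.074 (n = 6 measured, adjusted p = 0.0398, limma), or -0.35 ± 0.075 without the 2 h arrays (adjusted p = 0.00874). Within the 2 array runs the 2 to 6 h mean was -0.22, which rests on 2 and 4 h only, and -0.15. That call was lost with the run as a random block (adjusted p = 0.115), with the OCI-Ly3 super-repressor arrays fitted alone (0.125), and without replicate 1 at 2 h (0.0799), either 4 h array (0.0882 and 0.0731) or the 6 h array that lacked PLEK (0.0616), and without the other 6 h array PLEK could not be tested. PLEK was not called in another experiment, and under the STAT3 siRNA all 4 arrays of the window were above 0 (0.03 to 0.29, adjusted p = 0.438).

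PTPN22, the phosphatase that dampens SRC family kinases, varied least between replicates among the 9 genes and rose under the super-repressor in both lines. Its replicate SD was 0.11, beside 0.20 for the median gene. Under the super-repressor in OCI-Ly3 it was -0.0086 after 1 h, 0.19 after 1.5 h, 0.08 and 0.30 after 2 h, 0.14 after 3 h, 0.25 and 0.35 after 4 h and 0.40 and 0.18 after 6 h. In OCI-Ly10 it was -0.04 after 1.5 h, 0.26 after 3 h, 0.34 after 6 h and 0.80 after 24 h. Arrays from 1.5 h on in OCI-Ly3 and from 3 h on in OCI-Ly10 were all above 0. The mean was 0.23 ± 0.053 in OCI-Ly3 (SE, n = 7, adjusted p = 0.00849, limma, with 0.24 within each array run). In OCI-Ly10 it was 0.47 ± 0.077 (n = 3, with the error from replicates of the other experiments, adjusted p = 0.00505, limma). All 7 probes lay above 0 in both lines. The OCI-Ly3 call was lost with the run as a random block (adjusted p = 0.0806) and with its own arrays fitted alone (0.0597), and the OCI-Ly10 call with the run as a random block (0.0813) and without the 24 h array (0.30 ± 0.095, adjusted p = 0.760). Under the STAT3 siRNA PTPN22 was at -0.74 on the single 8 h array and between -0.16 and 0.19 at 24 and 48 h.

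**Figure D3:**
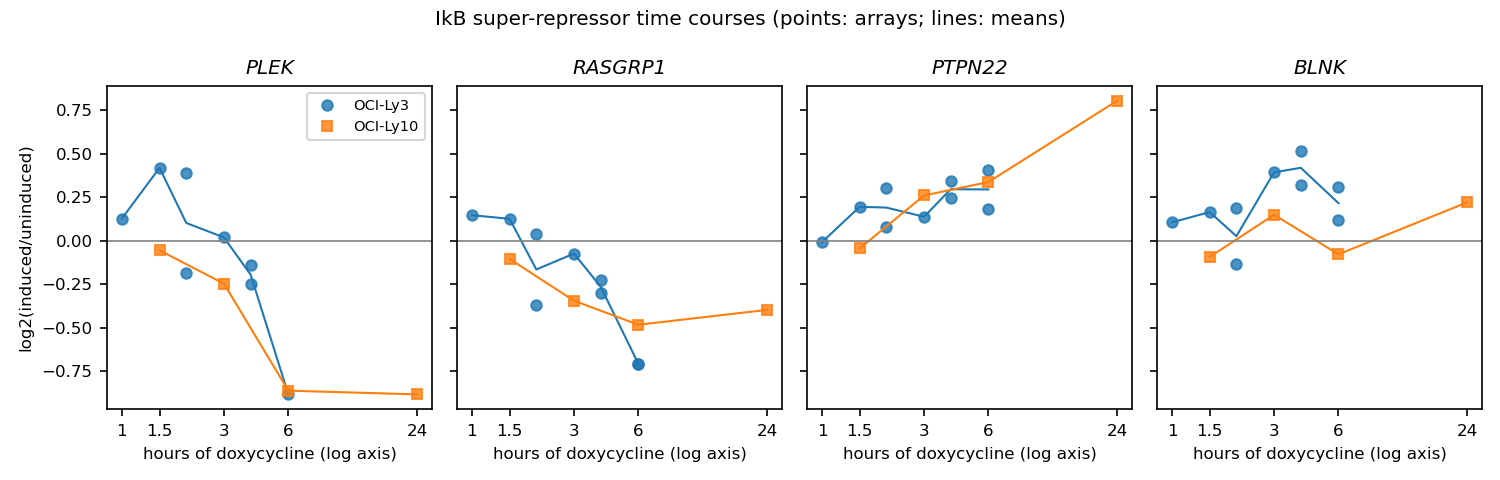
Log2 ratio of induced over uninduced cells (vertical axis) against hours of doxycycline (log axis) for PLEK, RASGRP1, PTPN22 and BLNK, with OCI-Ly3 as circles, OCI-Ly10 as squares and lines through the means. At 6 h PLEK and RASGRP1 lie below 0 and PTPN22 above 0 in both lines, while BLNK lies above 0 from 3 h on in OCI-Ly3.

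The stretch before the start site is shown for these 4 genes, since they rose or fell under the super-repressor in OCI-Ly3. RefSeq (GRCh38.p14) held such windows for 8 of the 9 genes, 12 windows in all, and the 250 bases before the start are printed 5′ to 3′ along the gene. Both strands were searched for the kB consensus, the NF-kB binding motif, and for TTCNNNGAA, the core bound by STAT proteins, and matches are in capitals.
BLNK, chr10:96271570-96271819, minus strand: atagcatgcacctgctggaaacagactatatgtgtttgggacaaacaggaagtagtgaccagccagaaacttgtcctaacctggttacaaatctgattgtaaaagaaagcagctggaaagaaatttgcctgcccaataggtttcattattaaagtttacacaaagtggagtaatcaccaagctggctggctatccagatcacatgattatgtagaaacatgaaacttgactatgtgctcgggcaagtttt
RASGRP1, chr15:38564815-38565064, minus strand: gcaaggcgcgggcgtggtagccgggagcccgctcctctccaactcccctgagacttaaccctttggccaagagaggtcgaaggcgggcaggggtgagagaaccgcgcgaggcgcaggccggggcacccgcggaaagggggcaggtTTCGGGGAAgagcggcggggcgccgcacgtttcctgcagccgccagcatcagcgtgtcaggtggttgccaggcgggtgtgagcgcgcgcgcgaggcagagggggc
PLEK, chr2:68365032-68365281, plus strand: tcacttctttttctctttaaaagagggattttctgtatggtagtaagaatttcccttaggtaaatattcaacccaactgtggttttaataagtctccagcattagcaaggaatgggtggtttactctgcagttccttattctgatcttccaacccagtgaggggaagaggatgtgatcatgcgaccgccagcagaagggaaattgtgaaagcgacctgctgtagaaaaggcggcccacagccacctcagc
PTPN22, chr1:113871713-113871962, minus strand: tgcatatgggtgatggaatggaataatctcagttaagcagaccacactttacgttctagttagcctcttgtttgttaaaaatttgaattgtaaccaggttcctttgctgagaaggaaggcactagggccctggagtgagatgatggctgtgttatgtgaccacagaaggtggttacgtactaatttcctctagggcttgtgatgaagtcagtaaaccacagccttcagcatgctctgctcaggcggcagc
RASGRP1 held TTCGGGGAA, 105 to 97 bases before the start site. No kB match stood in these 4 windows, while LCK and BTK each held 1 in 1 of their windows. Of all 35116 such windows, 9.96% held a kB match and 6.57% a TTCNNNGAA match. A match describes letters only, and its lack in so short a window says nothing about the factor.

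Under IL-10 PTPN22 first went down and then far up. It was -0.04 and -0.01 after 1 h, -0.60 and -0.45 after 3 h, -0.25 and -0.25 after 6 h, 0.63 and 0.72 after 24 h, 0.76 after 48 h and 1.05 after 96 h. All 6 arrays up to 6 h were below 0 and all 4 later ones at 0.63 or more. How many of all genes separate in this way was not counted. The mean over 24 to 96 h was higher than that over 1 to 6 h by 1.10 ± 0.089 (adjusted p = 7.72e-08, limma), and all 7 probes were called in this difference (0.76 to 1.27). Within the 2 array runs that hold both early and 24 h arrays, 24 h lay above 1 to 6 h by 0.93 and 0.96. The 1 to 96 h mean of 0.28 ± 0.045 (SE, n = 10, adjusted p = 7.85e-05) averages both phases, and without the 96 h array it was 0.13 ± 0.046 (adjusted p = 0.0502).

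BLNK had a course of like shape and smaller size. It was -0.03 and -0.21 after 1 h, -0.54 and -0.47 after 3 h, -0.20 and -0.34 after 6 h, 0.24 and 0.09 after 24 h, 0.28 after 48 h and 0.42 after 96 h. Again the 6 early arrays were below 0 and the 4 later ones above. The later mean exceeded the early one by 0.59 ± 0.13 (adjusted p = 0.00329, limma), by 0.50 and 0.43 after 24 h within the 2 array runs. All 5 probes were higher late than early (0.09 to 0.82, 3 called), though their means over the whole course ran from -0.50 to 0.54. These 2 of 9 genes were called in the late minus early difference where 13.5% of all genes were, and the median of the 9 was 0.21 beside 0.01. PLEK was higher late by 0.32 ± 0.11 (adjusted p = 0.0759) and was called with the replicate number as a block (± 0.098, adjusted p = 0.0396), but not with the run as a random block (adjusted p = 0.110). Its 96 h array was at 0.58. For RASGRP1, LCK, BTK, SYK and LYN the differences lay between -0.08 and 0.22 with adjusted p of 0.368 or more, and MALT1 had 0.21 ± 0.10 (adjusted p = 0.215).

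Taken alone, the 1 to 6 h window held a fall of PTPN22 (-0.27 ± 0.055, adjusted p = 0.00265, limma) and of BLNK (-0.30 ± 0.077, adjusted p = 0.0131), 2 of 9 where 14.5% of all genes were called. The 24 to 96 h window held a rise of PTPN22 (0.83 ± 0.071, adjusted p = 3.22e-08), of MALT1 (0.34 ± 0.080, adjusted p = 0.00427) and of BLNK (0.29 ± 0.10, adjusted p = 0.0373), 3 of 9 where 27.9% of all genes were. Both windows were added after the time course had been seen. Cell type markers were also looked at in the late minus early difference, where 13.5% of all genes were called. Of 5 myeloid markers 2 were higher late (median 0.20, range -0.28 to 0.62), as was 1 of 14 T and NK cell markers (median 0.04). Among 6 B cell markers 1 was higher and 1 lower. Their part in these results was not tested.

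**Figure D4:**
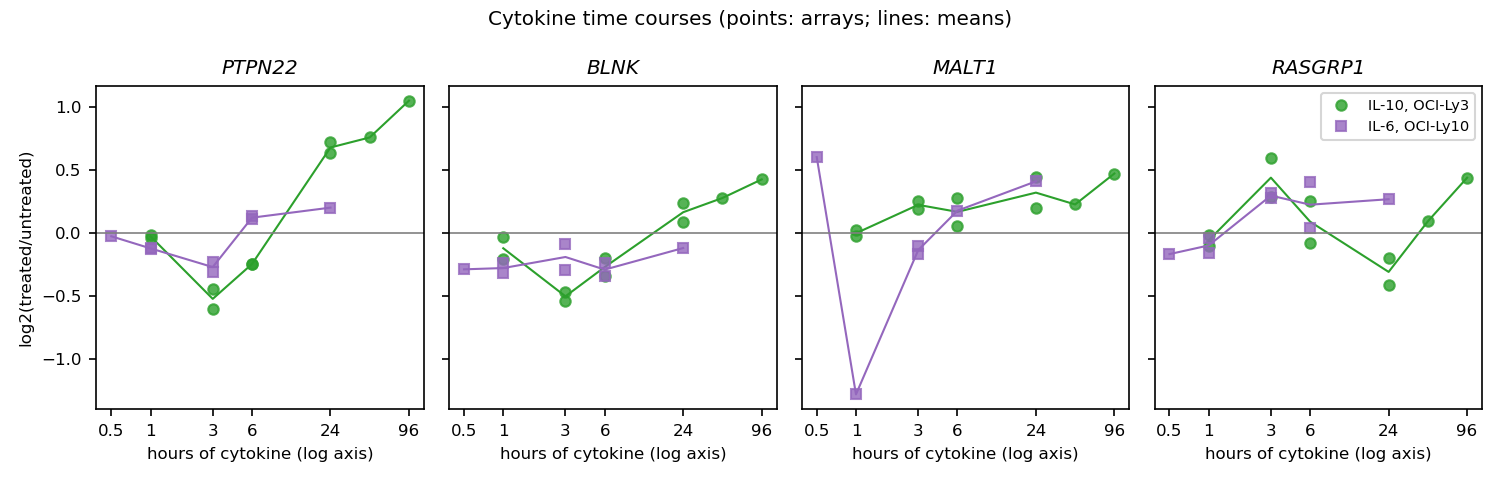
Log2 ratio of treated over untreated cells (vertical axis) against hours of cytokine (log axis) for PTPN22, BLNK, MALT1 and RASGRP1, with IL-10 in OCI-Ly3 as circles, IL-6 in OCI-Ly10 as squares and lines through the means. PTPN22 and BLNK dip at 3 h of IL-10 and lie above 0 from 24 h, and MALT1 under IL-6 rests on a single array at 1 h, at -1.29.

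IL-6 in OCI-Ly10 and IL-10 in OCI-Ly3 share a dose and 4 time points, but cytokine and line cannot be told apart. After 3 h of IL-6 PTPN22 was at -0.23 and -0.31 and after 24 h at 0.20, on the same sides of 0 as under IL-10, but after 6 h it was at 0.13 and 0.11, on the other side. The mean over 1, 3, 6 and 24 h differed by -0.01 ± 0.071 for PTPN22, with a 95% interval from -0.16 to 0.14. MALT1 was called in this comparison (IL-10 higher by 0.39 ± 0.089, adjusted p = 0.0113, limma), 1 of 9, near the 9.50% of all genes called. MALT1 had values on 5 of 7 IL-6 arrays, too few to be tested under IL-6 alone. It passed here because the filter pools the arrays of both sides, and neither of its 2 probes could be tested. The call rests on the only IL-6 value at 1 h, -1.29. Over 3, 6 and 24 h the difference was 0.09 ± 0.10 (adjusted p = 0.669, limma). With the run as a random block over all 4 times the adjusted p was 0.0660. LCK was lower under IL-10 by 0.30 ± 0.096 (adjusted p = 0.0542) and was called with the replicate number as a block (± 0.088, adjusted p = 0.0346), and also without the IL-6 array of replicate 1 at 1 h (0.0479) or replicate 2 at 3 h (0.0495) or 6 h (0.0431), or the IL-10 array of replicate 2 at 1 h (0.0147), 6 h (0.0464) or 24 h (0.0394). With the run as a random block it was not called (0.258).

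The super-repressor was compared between the lines at 1.5, 3 and 6 h. None of the 9 genes was called in this difference, nor was any of 4384 genes (0%), with 108 at an unadjusted p under 0.05. MALT1 came nearest, higher in OCI-Ly3 by 0.28 with a 95% interval from 0.03 to 0.54. The interval for PTPN22 ran from -0.19 to 0.24 and that for PLEK from -0.05 to 0.53, which is wide beside the window means. In OCI-Ly10 JAK inhibitor I minus the super-repressor at 3 and 6 h gave 0.39 ± 0.15 for PLEK and -0.30 ± 0.12 for PTPN22 (adjusted p = 0.639 for each, limma). With arrays scaled to equal spread they were 0.73 ± 0.13 and -0.48 ± 0.11, and both were called (adjusted p = 0.00702 and 0.0298). In the fit without that scaling none of the 9 was called, where 0.316% of all genes were.

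**Figure D5:**
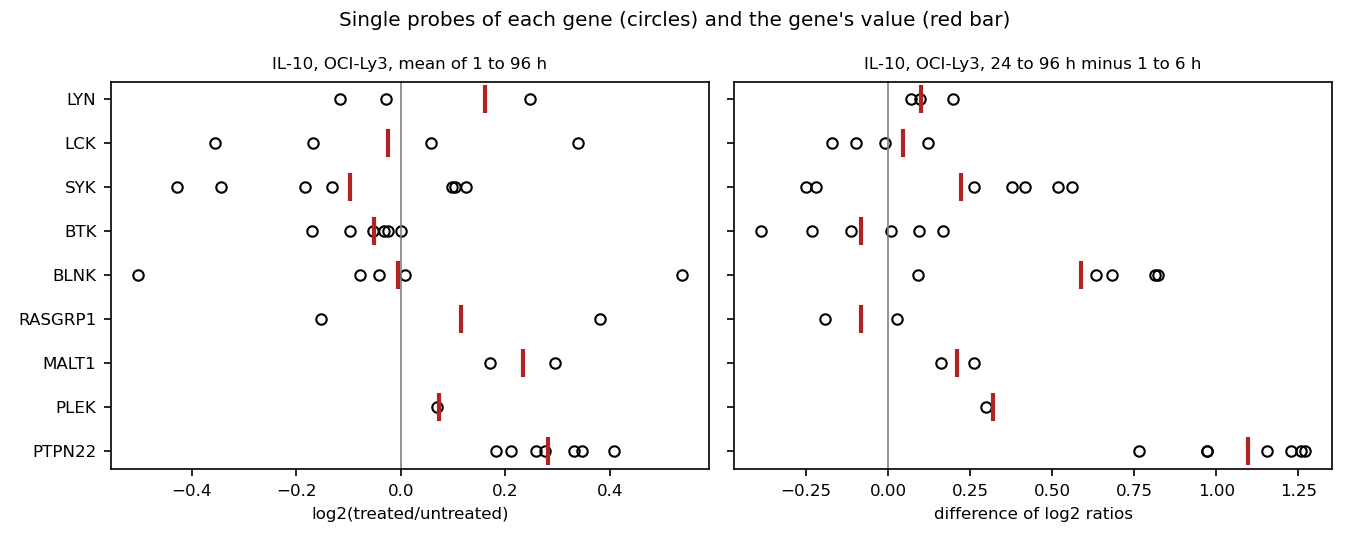
Values of single probes (circles) and of the gene (red bar) under IL-10 in OCI-Ly3, as the mean over 1 to 96 h (left) and as the later minus the early mean (right). The 7 PTPN22 probes lie together, at 0.76 to 1.27 on the right, while BLNK, SYK, LCK, RASGRP1, LYN and BTK have probes on either side of 0 on the left.

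A list of 89 other pathway genes, of which 66 were on the array, shows where the rest of the route moved. Under the super-repressor in OCI-Ly3 4 rose and 3 fell of 66, beside 14.0% of all genes called, with a median of -0.02. The largest were PDPK1, the kinase that activates AKT (-0.42 ± 0.094), IGHD, the delta heavy chain (-0.38 ± 0.080), CD5, a dampening surface receptor (-0.24 ± 0.071) and PAG1, an adaptor for the inhibitory kinase CSK (0.23 ± 0.067). None of 65 was called in OCI-Ly10, and none of 58 under IL-6, beside 0.532% and 4.54% of all genes. Calls of this list were not looked at with the run as a random block. Under the STAT3 siRNA PAG1 alone fell (-0.49 ± 0.085, on 4 of 4 arrays), and under JAK inhibitor I CD79B, the receptor's signalling chain, alone rose (0.68 ± 0.13, on 4 of 4 arrays), beside 3.31% and 3.26% of all genes.

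Under IL-10 14 of the 66 rose and 10 fell, with a median of -0.0033, beside 35.3% of all genes called. The adaptor GAB1 fell (-0.89 ± 0.13), and the adaptors BANK1 (0.85 ± 0.077) and SLA (0.73 ± 0.072) and the inhibitory Fc receptor FCGR2B (0.52 ± 0.044) rose. Of 14 inhibitory genes 6 rose and 2 fell, and of 10 kinases 3 fell. Between early and late, 11 of the 66 were higher late and 2 lower, beside 13.5% of all genes. BANK1 (1.60 ± 0.15), SLA (1.52 ± 0.14), FCGR2B (1.20 ± 0.087) and DAPP1, an adaptor that binds membrane lipids (0.80 ± 0.15), had the largest differences. PTPN22, at 1.10, thus lay near these genes in size.

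Over the means of the 26 time points, Pearson's r between the 9 genes had a median of 0.12 in 36 pairs. The highest was that of BLNK with PTPN22 (0.76), followed by RASGRP1 with LYN (0.67), and the lowest that of BLNK with LCK (-0.40). Of 3990 genes outside the 9, each compared over 24 to 26 time points, BCL2A1 (0.88) and CXCL10 (0.87) were most like PLEK. E2F5 (0.88) and PTPRC (0.86), the phosphatase CD45, were most like PTPN22, and SC5D (0.85) and NET1 (0.84) most like BLNK. CD70 (0.75) and CFLAR (0.75) were most like RASGRP1, TNFSF4 (0.73) and WNT6 (0.70) most like MALT1, and RALA (0.86) and RB1 (0.79) most like LYN. IWS1 and ZNF776 (0.79 each) were most like LCK, ARAF and GNB3 (0.77 each) most like SYK, and RPS3 (0.72) and RFC1 (0.69) most like BTK. The points share arrays, array runs and experiments, and a value picked as the highest of so many is a description only.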

How the data were processed

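The authors deposited log ratios of Cy5 over Cy3 for 15246 spotted probes on 40 arrays, per the labels. The deposited values were read as log2, although their base is not stated. Background correction, normalization and spot filters are not given in the labels or headers. The array medians, from -0.031 to 0.011, lie near 0, and 12.6% of values were blank, with 8862 to 14947 probes measured per array; the number of arrays limits the precision. Of the probes, 10169 had 1 gene symbol, 4 several and 5073 none in the platform annotation. Each array was centred on its median and probes were averaged per gene. Testing a gene in a window required values on at least 75% of the arrays there and at each time point. One limma 3.58.1 model (R 4.3.3) over 40 arrays gave a mean per experiment and time point, and p-values were adjusted by Benjamini-Hochberg over all genes tested. Replicate numbers paired samples by the correlation of their deviations under IL-10 (0.39 to 0.59) and IL-6 (0.18 to 0.23), and not under the super-repressor in OCI-Ly3. JAK inhibitor I and the siRNA had 1 pair to compare each (0.22 and 0.25), too few to decide. The 9 genes, the pathway and marker lists and the windows were chosen with earlier results of these data known. Named pathway genes are the 4 largest called per window, and like genes the 2 with the highest r per gene. The alternatives tried were other centring, scaling, averaging and filters, fewer arrays, the replicate or array run as a block, and each array left out.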

Additional observations from a re-analysis of the deposited data

Results flagged for a closer look

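Under IL-10 in OCI-Ly3, 2 of the 9 genes differed between the later (24 to 96 h) and the early (1 to 6 h) time points by a test of the difference itself: PTPN22 by 1.10 ± 0.089 (adjusted p = 7.72e-08, limma) and BLNK by 0.59 ± 0.13 (adjusted p = 0.00329). Of all genes tested, 13.5% were called in this difference. For each of the 2 genes all 4 later arrays lay above all 6 early ones, and how many of all genes do so was not counted. The 48 and 96 h arrays form a run of array identifiers of their own, and 24 h against 1 to 6 h within the other runs gave 0.93 and 0.96 for PTPN22 and 0.50 and 0.43 for BLNK.

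MALT1 differed between IL-10 in OCI-Ly3 and IL-6 in OCI-Ly10 by 0.39 ± 0.089 (adjusted p = 0.0113, limma), a value that rests on the single IL-6 array measured at 1 h and was 0.09 ± 0.10 without that time point (adjusted p = 0.669). MALT1 had values on 5 of 7 IL-6 arrays and passed the filter only with the IL-10 arrays counted in.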

How the results depend on the processing

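Of the 1404 values that the alternatives gave for the 9 genes' means, 1287 kept their direction and side of the threshold, whatever their size. With the direction kept, 33 lost their call and 28 gained one. Direction changed in 54 without a call in either fit. In 2 it changed with a call: PTPN22 under IL-10 was -0.27 over 1 to 6 h, and BLNK was 0.29 over 24 to 96 h. With the array run as a random block (consensus correlation 0.26), 0 of the 9 genes were called under the super-repressor in OCI-Ly3, 1 in OCI-Ly10, 0 under IL-6, 0 under the siRNA and 0 for IL-10 minus IL-6. In fits of the compared experiments alone, 1 was called under the super-repressor in OCI-Ly3, 0 under IL-6 and 0 under the siRNA; the OCI-Ly10 super-repressor window could not be fitted so, having no replicates. With arrays scaled to equal spread, 3 were called under the super-repressor in OCI-Ly10, 3 under IL-6, 1 under JAK inhibitor I, 2 for IL-10 minus IL-6 and 2 for JAK inhibitor I minus the super-repressor. IL-10 minus IL-6 gave 2 without centring, 0 with a value on every array and 0 over 3, 6 and 24 h.

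With the replicate block, 2 genes were called under IL-6, 1 under JAK inhibitor I (BLNK, -0.30, adjusted p = 0.0232) and 2 for IL-10 minus IL-6, and MALT1 was called under the super-repressor in OCI-Ly3 (adjusted p = 0.0265). The numbers did not pair the super-repressor samples (correlations of -0.37 to 0.34), and the single pair under JAK inhibitor I could not decide it. The block ended no call of the 9 genes. For a window mean tested against 0 it takes spread shared within a replicate out of the error, so it cannot bear out a call there. Leaving out 1 array at a time, 2 to 4 genes were called under the super-repressor in OCI-Ly3, 0 to 2 in OCI-Ly10, 0 to 1 under IL-6, 1 to 3 under IL-10, 0 to 1 under the siRNA and 0 to 2 for IL-10 minus IL-6, and 2 throughout for late minus early IL-10. The cause of these changes was not tested.

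Counts over all genes moved by over 1.5 times under these settings. In the order super-repressor in OCI-Ly3 and OCI-Ly10, IL-6, siRNA, JAK inhibitor I, IL-10 minus IL-6 and JAK inhibitor I minus super-repressor, the run block gave 120, 5, 38, 48, 78, 103 and 9, beside 616, 24, 150, 144, 146, 346 and 14. Fits of the compared arrays alone gave 368 (super-repressor, OCI-Ly3), 71 (IL-6), 1031 (IL-10), 0 (siRNA), 12 (JAK inhibitor I), 227 (late minus early IL-10), 207 (IL-10 minus IL-6) and 0 (JAK inhibitor I minus super-repressor). The replicate block gave 1105 (super-repressor, OCI-Ly3), 39 (OCI-Ly10), 314 (IL-6), 417 (siRNA), 260 (JAK inhibitor I) and 534 (IL-10 minus IL-6). Equal spread gave 238 (super-repressor, OCI-Ly10), 455 (IL-6), 83 (siRNA), 232 (JAK inhibitor I), 295 (late minus early IL-10), 2 (between lines) and 64 (JAK inhibitor I minus super-repressor). Probes in place of genes, of which more were tested, gave 1412, 84, 3187, 423, 459, 1262, 555 and 40 for the super-repressor in OCI-Ly3 and OCI-Ly10, IL-10, the siRNA, JAK inhibitor I, late minus early IL-10, IL-10 minus IL-6 and JAK inhibitor I minus super-repressor. The windows of 4 and 6 h of the super-repressor and of 1 to 6 h of IL-10 gave 384 and 643. Leaving out 1 array, which moved neither the IL-10 nor the IL-10 minus IL-6 count by over 1.5 times, gave 269 to 957, 1 to 17, 93 to 147, 1161 to 1569, 21 to 106, 44 to 160, 306 to 600, 247 to 423 and 1 to 18 in the order super-repressor in OCI-Ly3 and OCI-Ly10, IL-6, IL-10, siRNA, JAK inhibitor I, late minus early IL-10, IL-10 minus IL-6 and JAK inhibitor I minus super-repressor.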
